A study of Mus musculus with 3 samples.

Results

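A set of 7 genes of the epithelial to mesenchymal transition was followed in RNA of embryonic mouse mammary cells: the transcription factor genes Snai1, Snai2, Twist1, Zeb1 and Zeb2, and the mesenchymal genes Vim and Fn1. They were taken by name, and every probe set that the platform annotation pairs with exactly 1 of these symbols was kept, which gave 14 probe sets for 7 genes, out of 45141 probe sets on the array and 17097 genes measured. The 3 samples formed 1 group. They were mammary cells sorted for high CD49f and high Lgr5 reporter signal from female embryos at embryonic day 14 that carry Lgr5-IRES-GFP, a fluorescent reporter at the locus of the Wnt target gene Lgr5. Each sample pooled the female embryos of 1 litter, and all samples share that reporter allele. CD49f is integrin alpha 6, a surface chain of basal epithelium. Either 813 or 2000 cells were sorted per sample, without a label saying which sample had which number, and their cDNA was amplified over 25 cycles. Epidermis was digested together with the mammary gland before the sort. No second group was compared, so levels were compared with a background taken from the arrays themselves.

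In an epithelial to mesenchymal transition, cells loosen their junctions, lose apical-basal polarity and gain motility. Factors of the Snail family (Snai1, Snai2) and the Zeb family (Zeb1, Zeb2) are zinc finger proteins that repress epithelial genes such as Cdh1 by binding E-boxes in their regulatory DNA, and Twist1 is a basic helix-loop-helix factor that also acts through E-boxes. Vim encodes vimentin, the intermediate filament of mesenchymal cells, and Fn1 encodes fibronectin, a matrix glycoprotein bound by integrins. In the adult mammary gland Snai2 is known as a factor of basal cells, though not of these cells alone. Twist1, Zeb1, Zeb2, Vim and Fn1 are expressed widely in mesenchyme.

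The E-box bound by Snail and Zeb factors, CAGGTG, was looked up in the RefSeq promoter windows, which run from 250 bases before to 50 after each gene start in build GRCm38.p6. Both strands were searched, so that CACCTG was counted as well, and no second motif was looked for. Of the 7 genes, 4 had a window (Snai1, Twist1, Zeb2 and Vim), and 1 of these 4, Snai1, held the E-box, at position -126 from the gene start. Of the epithelial genes repressed in the transition, a list described further on, 20 had a window and 15 of them (75%) held the E-box. In a list of mesenchymal genes raised in the transition it was 3 of 16 (18.8%). Over all genes with a window it was 6098 of 27025 (22.6%). That epithelial list was drawn up from epithelial genes known to be repressed in the transition, and known targets of such factors were not kept apart. Genes with several windows were counted when any window held it, and a match describes letters, not binding. The stretches before the gene start are shown for Snai1 and Vim, as a factor gene with the motif and a mesenchymal gene without it, and for 5 epithelial genes named by rule, 5′ to 3′ on the strand of the gene, with the E-box in capitals. The 250 bases shown lie, for Snai1 at chr2:167537945-167538194 on the plus strand, Vim at chr2:13574061-13574310 on the plus strand, Epcam at chr17:87635729-87635978 on the plus strand, Cldn7 at chr11:69965171-69965420 on the plus strand, Crb3 at chr17:57061951-57062200 on the plus strand, Pard6b at chr2:168080754-168081003 on the plus strand and Cldn4 at chr5:134946935-134947184 on the minus strand.
Snai1: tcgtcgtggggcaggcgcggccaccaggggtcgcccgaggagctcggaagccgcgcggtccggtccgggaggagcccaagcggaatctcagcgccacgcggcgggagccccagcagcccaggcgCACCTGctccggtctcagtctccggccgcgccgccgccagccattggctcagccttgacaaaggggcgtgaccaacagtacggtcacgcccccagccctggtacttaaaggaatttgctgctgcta
Vim: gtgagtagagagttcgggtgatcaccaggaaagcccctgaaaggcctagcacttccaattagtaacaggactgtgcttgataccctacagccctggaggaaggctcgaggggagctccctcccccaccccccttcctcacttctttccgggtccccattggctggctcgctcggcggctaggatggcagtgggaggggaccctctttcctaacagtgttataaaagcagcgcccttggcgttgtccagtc
Epcam: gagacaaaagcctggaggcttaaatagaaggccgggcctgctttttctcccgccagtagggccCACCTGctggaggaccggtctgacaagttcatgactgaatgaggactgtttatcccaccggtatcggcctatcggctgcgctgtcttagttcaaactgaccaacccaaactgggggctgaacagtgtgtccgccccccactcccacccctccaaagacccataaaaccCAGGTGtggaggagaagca
Cldn7: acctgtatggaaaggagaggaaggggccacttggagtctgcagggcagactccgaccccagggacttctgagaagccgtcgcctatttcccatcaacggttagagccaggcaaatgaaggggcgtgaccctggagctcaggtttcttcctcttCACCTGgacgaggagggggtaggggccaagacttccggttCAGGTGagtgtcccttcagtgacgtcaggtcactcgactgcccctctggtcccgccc
Crb3: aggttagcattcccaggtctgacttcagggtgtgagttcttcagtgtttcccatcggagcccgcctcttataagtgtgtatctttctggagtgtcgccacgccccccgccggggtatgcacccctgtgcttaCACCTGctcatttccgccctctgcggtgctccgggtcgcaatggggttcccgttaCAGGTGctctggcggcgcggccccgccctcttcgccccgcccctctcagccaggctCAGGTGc
Pard6b: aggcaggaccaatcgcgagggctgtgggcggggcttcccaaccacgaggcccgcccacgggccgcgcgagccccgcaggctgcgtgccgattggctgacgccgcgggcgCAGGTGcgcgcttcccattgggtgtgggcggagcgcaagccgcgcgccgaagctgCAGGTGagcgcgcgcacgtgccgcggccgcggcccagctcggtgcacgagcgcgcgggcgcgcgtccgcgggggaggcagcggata
Cldn4: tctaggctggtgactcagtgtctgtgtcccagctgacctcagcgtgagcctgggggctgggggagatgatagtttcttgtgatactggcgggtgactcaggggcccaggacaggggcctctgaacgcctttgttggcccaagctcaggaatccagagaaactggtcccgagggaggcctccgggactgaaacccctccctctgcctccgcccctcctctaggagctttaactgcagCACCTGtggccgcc
In these stretches the E-box of Epcam lay at positions -187 and -19, that of Cldn7 at -97 and -57, and that of Pard6b at -141 and -86. Crb3 held 4 matches in its window, of which the first began at -118 and 3 fall in the stretch shown. Cldn4 held 1 at -14 and 1 at position 12 after the start. The stretch of Vim held none. Cldn7 and Crb3 each have a second window, not shown, of which that of Cldn7 held no E-box. Of the other epithelial genes named by rule as above background, Cldn3 held 1 match, at position 32 after the start, and Ocln held matches at -213 and -68 in 1 of its windows and at position 8 in the other, and they are not shown.

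All 7 genes were above background. Background on an array was the 95th percentile of 76 olfactory and vomeronasal receptor genes (log2 6.29 on replicate 1 and 6.24 on both others), and each gene was represented by its brightest probe set. A gene was called above background when its mean distance above the threshold passed limma's one-sided test with an adjusted p under 0.05 over all genes. The count of 7 of 7 stands beside 52.4% of all genes tested (8955 of 17097). By probe set, 10 of the 14 were above background, beside 46.7% of all probe sets with 1 gene. With tissue-restricted genes as background, a stricter setting described further on, it was 7 of the 14, beside 28.7%, and against the brightest antigenomic control it was also 7, beside 26.3%.

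The Snail family genes lay close to the threshold. Snai1, the factor named after the fly gene snail, gave 7.36, 7.36 and 6.89 (log2) for replicates 1, 2 and 3 (mean 7.20 ± 0.27, SD, n = 3). All 3 arrays lay above the threshold, by 0.94 on average (95% CI 0.54 to 1.35, adjusted p = 0.00261), and replicate 3 was the lowest. Snai2, also called Slug, had 7.43, 7.76 and 7.62 (mean 7.61 ± 0.16). It stood 1.35 above the threshold (95% CI 0.96 to 1.73, adjusted p = 0.000538), and replicate 1 was the lowest.

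Both Snail genes lost their call under a stricter background. Of 45 measured genes restricted to unrelated tissues, 13 were themselves above the receptor threshold. With the 95th percentile of these 45 genes as threshold (7.26, 7.15 and 7.23), Snai1 lay at -0.01 (adjusted p = 1) and Snai2 at 0.39 above it (adjusted p = 0.0743). The other 5 genes passed there, beside 34.3% of all genes. The same 5 passed against the brightest antigenomic control probe set, where Snai1 lay at -0.18 and Snai2 at 0.22, beside 31.6% of all genes.

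Twist1 was far above both thresholds. It had log2 values of 9.98, 9.65 and 9.76 on the 3 arrays (mean 9.80 ± 0.17, SD, n = 3), 3.54 above the receptor threshold (95% CI 3.21 to 3.87, adjusted p = 1.79e-05). The 3 litters differed little, with a range of 0.33 against a median range of 0.48 over genes above background.

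The Zeb genes were above background by their brightest probe sets, and not by all of the others. Zeb1 had log2 values of 9.19, 8.78 and 8.75 (mean 8.91 ± 0.25, SD, n = 3) on 1418926_PM_at, 2.65 above the threshold (adjusted p = 5.85e-05). Its second probe set, 1446127_PM_at, had 7.58, 7.29 and 7.06 and was also above background (adjusted p = 0.00247 over probe sets). The third, 1443005_PM_at, had 6.58, 6.62 and 6.46, which was not (adjusted p = 0.0765). On the first 2 of these, replicate 1 was the highest and replicate 3 the lowest. With the mean of its probe sets in place of the brightest, Zeb1 lay 1.44 above the threshold (adjusted p = 0.000475).

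Zeb2 had log2 values of 9.50, 9.32 and 8.38 (mean 9.06 ± 0.60, SD, n = 3) on 1422748_PM_at, 2.81 above the threshold (95% CI 2.15 to 3.46, adjusted p = 0.000257). Replicate 3 was set apart from the other litters, and the highest array was 2.17-fold above the lowest. This range of 1.12 exceeded that of 90.2% of genes above background. The other 3 probe sets of Zeb2 were not above background. Of these, 1456389_PM_at had 5.71, 5.79 and 4.99, 1458941_PM_at had 5.31, 5.23 and 5.59, and 1454200_PM_at had 6.03, 5.39 and 7.12. The last of these was over the threshold on 1 array, replicate 3, where the brightest probe set was lowest. The lower value of Zeb2 on replicate 3 rests on 1 probe set above background, and 1454200_PM_at ran the other way. With the mean of its 4 probe sets in place of the brightest, Zeb2 lay 0.38 above the threshold (adjusted p = 0.0298). Which part of the Zeb2 transcripts each probe set reads was not analysed here.

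**Figure D1:**
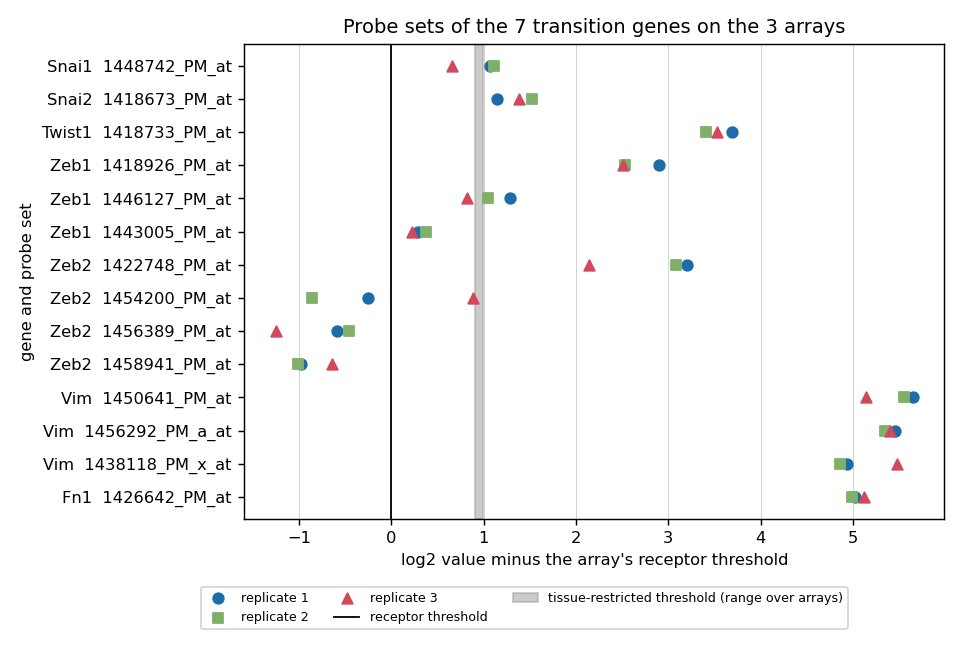
Log2 value minus the receptor threshold of the array (x axis) for the 14 probe sets of the 7 genes (y axis), with 1 point per litter. The black line marks the receptor threshold and the grey band the threshold from tissue-restricted genes. All probe sets of Vim and Fn1 lie far to the right, Snai1 and Snai2 lie near the grey band, and 3 probe sets of Zeb2 lie around or below the black line.

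The mesenchymal genes Vim and Fn1 lay far above the threshold. Vim had log2 values of 11.94, 11.79 and 11.38 on 1450641_PM_at (mean 11.70 ± 0.29, SD, n = 3), 5.45 above the threshold (adjusted p = 7.67e-06). Its probe set 1456292_PM_a_at had 11.75, 11.59 and 11.64, and 1438118_PM_x_at had 11.23, 11.11 and 11.72. All 3 probe sets were above background on each array. They did not order the litters alike: replicate 3 was the lowest on the first and the highest on the last, whose mark in the name says that its probes may match other transcripts.

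Fn1 had log2 values of 11.31, 11.23 and 11.35 (mean 11.30 ± 0.06, SD, n = 3), 5.04 above the threshold (95% CI 4.80 to 5.28, adjusted p = 4.70e-06). It was the steadiest of the 7 genes, with a range of 0.12 over the litters, smaller than that of all but 6.64% of genes above background.

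The cells also had signal of the epithelial genes listed as repressed in the transition. Of 30 measured genes of that list, 25 were above background, with a median distance of 1.81 above the threshold, against 0.62 over all genes. Each list count from here on stands beside 52.4% of all genes, or 34.3% with tissue-restricted genes as background. Cdh1, the gene of E-cadherin, had 7.02, 7.62 and 8.36, all above the threshold. Epcam, an epithelial adhesion gene, had 9.96, 10.22 and 10.75. The tight junction claudin genes Cldn4 (9.68 ± 0.44, SD, n = 3) and Cldn7 (10.16 ± 0.17) were above background, as were Cldn3 (7.13 ± 0.27) and the occludin gene Ocln (6.84 ± 0.21). The polarity genes Crb3 (8.14 ± 0.47) and Pard6b (7.44, 8.03 and 6.27 on replicates 1, 2 and 3) passed too. Cldn1 (6.86 ± 0.84), the plakophilin gene Pkp2 (5.19 ± 0.47), the polarity scaffold gene Patj (5.62 ± 0.35) and Ovol2 (6.03 ± 0.28), a factor known to repress Zeb1, were not above background. With tissue-restricted genes as background, 16 of the 30 passed, and Cdh1, Cldn3, Ocln and Pard6b did not. Each array held RNA of pooled cells, so transition and epithelial genes in the same cell cannot be told apart from a mixture of cells, nor fewer cells of a type from less RNA per cell.

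Mesenchymal genes known to rise in a transition were above background in 16 of 23 cases (12 with tissue-restricted genes as background), with a median distance of 1.58. The matricellular gene Sparc had log2 values of 12.71, 12.67 and 12.24, and the collagen crosslinking gene Lox had 10.31, 9.98 and 9.62. The matrix metalloproteinase genes Mmp2 (10.22 ± 0.32, SD, n = 3) and Mmp14 (9.88 ± 0.13) were above background, and so was Mmp9 (7.38 ± 0.54), which did not pass with tissue-restricted genes as background. The N-cadherin gene Cdh2 had 7.96, 7.30 and 8.18, and Cdh11, a mesenchymal cadherin gene, had 8.51, 7.81 and 9.15. The tenascin C gene Tnc had 10.18, 9.53 and 8.39, with the lowest value on replicate 3. S100a4 (4.71 ± 0.07), Mmp3 (5.17 ± 0.10), the calponin gene Cnn1 (5.59 ± 0.43) and Ccn2 (5.41 ± 0.20) were not above background.

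Other transition factors were above background in 14 of 20 cases (12 with tissue-restricted genes as background), with a median distance of 2.58. Twist2, the nearest relative of Twist1, had log2 values of 11.09, 10.76 and 10.55, and the homeobox factor gene Prrx1 had 10.42, 10.07 and 10.05. The genes of the class I helix-loop-helix proteins that pair with Twist factors, Tcf3 (10.28 ± 0.12, SD, n = 3), Tcf4 (10.25 ± 0.25) and Tcf12 (9.26 ± 0.09), were above background, as was Sox4 (8.84 ± 0.08). The Snail relatives Snai3 (6.80 ± 0.20) and Scrt2 (6.73 ± 0.19) passed the receptor threshold and not that of tissue-restricted genes, and Scrt1 (5.97 ± 0.41) was not above background. The forkhead genes Foxc1 (4.68 ± 0.32), Foxc2 (4.23 ± 0.19) and Foxf1 (6.18 ± 0.03) were not above background either.

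Cofactors and regulators of the Snail and Zeb proteins were above background in 19 of 19 cases, and in 16 with tissue-restricted genes as background. The corepressor genes Ctbp1 (8.60, 8.51 and 9.19) and Ctbp2 (9.16, 9.27 and 10.74), which encode partners of Zeb proteins, were highest on replicate 3, as were 63.2% of all genes above background. The histone deacetylase genes Hdac1 (8.54 ± 0.43, SD, n = 3) and Hdac2 (10.83 ± 0.09) were above background. Of 21 genes of inducing signals 17 passed (13 with tissue-restricted genes), among them the ligand genes Tgfb1 (7.24 ± 0.15), Tgfb2 (8.48, 7.73 and 7.62) and Tgfb3 (7.56 ± 0.23) and the receptor gene Tgfbr1 (8.50, 8.41 and 10.04). Tgfb1 and Tgfb3 fell short with tissue-restricted genes as background. Hgf (5.96 ± 0.11), Il6 (4.06 ± 0.24) and Lif (5.15 ± 0.18) were not above background.

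Partners of fibronectin were above background in 16 of 20 cases (14 with tissue-restricted genes as background), with a median distance of 3.10. The integrin genes Itgb1 (10.76 ± 0.06, SD, n = 3), Itgav (9.32 ± 0.43) and Itga4 (7.86 ± 0.42) passed, and Itga8 (6.92 ± 0.24) passed the receptor threshold alone. Itga5, whose product forms the classical fibronectin receptor with that of Itgb1, had 6.48, 6.63 and 5.52 and was not above background, and neither were Itgb3 (7.20, 7.45 and 5.92) and Itgb6 (5.50 ± 0.56). The list of other intermediate filament genes was drawn up with keratin and lamin genes and the filament linker gene Plec. Of its measured genes, 11 of 17 (64.7%) were above background, beside 52.4% of all genes. With tissue-restricted genes as background it was 8, beside 34.3% of all genes. Besides vimentin, the type III filament genes Des (5.96 ± 0.11) and Gfap (5.14 ± 0.21) were not above background, and Prph (6.68 ± 0.27) passed the receptor threshold alone. Nes (6.72 ± 0.28), Synm (7.65 ± 0.58) and Sync (8.05 ± 0.08) were above background, and Ina (5.46 ± 0.17) was not. Nes and Synm did not pass with tissue-restricted genes as background.

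**Figure D2:**
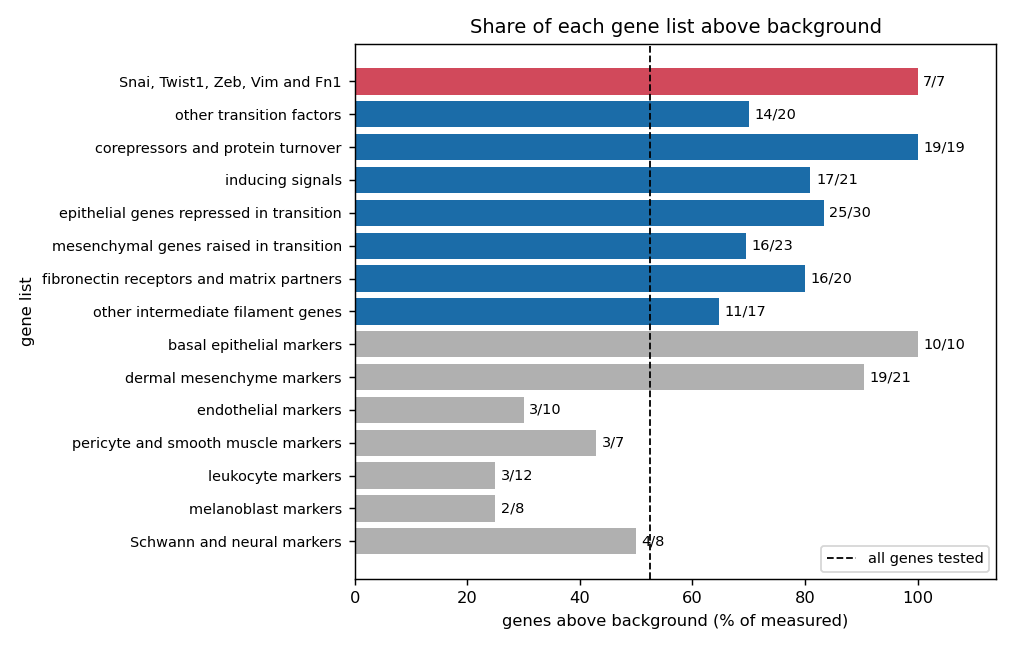
Share of the measured genes of each list that were above background (x axis, percent), with the counts beside the bars. The red bar holds the 7 transition genes, blue bars the pathway lists and grey bars the cell type markers, and the dashed line marks the 52.4% of all genes tested. Basal epithelial (10 of 10) and dermal mesenchyme (19 of 21) markers lie above the line, and leukocyte markers (3 of 12) lie below it.

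Markers of the cell types that the sort could hold were read beside these genes. Basal epithelial markers were above background in 10 of 10 cases, including Krt5 (12.15 ± 0.16, SD, n = 3), Krt14 (11.38 ± 0.25), the p63 gene Trp63 (10.53 ± 0.39) and the integrin gene Itgb4 (9.79 ± 0.19), with 9 of the 10 also above tissue-restricted genes, and both sort genes were, Lgr5 (10.27 ± 0.44) and Itga6 (10.37 ± 0.40). Dermal mesenchyme markers were above background in 19 of 21 cases, and 18 of the 21 passed with tissue-restricted genes as background. The mean log2 value over these 21 was 10.05, 9.98 and 10.01 on the 3 arrays. The collagen genes Col1a1 (12.99 ± 0.15) and Col3a1 (12.76 ± 0.13) and the receptor gene Pdgfrb (8.84 ± 0.20) were among them. Col1a2 stood at 7.99 ± 0.09. The 2 that were not above background were the fibroblast receptor gene Pdgfra (4.62, 4.52 and 5.52) and Mfap5 (5.88 ± 0.41). The part of mesenchymal cells in the signal of the 7 genes, Snai1 and Snai2 included, was not tested. Several genes stand on more than 1 list, among them Twist2, Prrx1, Postn, Pdgfrb, Sox10, Itgav and Krt5, so the lists are not independent.

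Other possible sources had a smaller share of markers above background than the basal and dermal lists. All genes stood at 52.4%, and at 34.3% with tissue-restricted genes as background. Endothelial markers reached 3 of 10, Pecam1 (7.63 ± 1.01), Flt1 (6.85 ± 0.29) and Egfl7 (7.29 ± 0.40, SD, n = 3), with a mean log2 value over the list of 6.24, 6.18 and 6.11 on the 3 arrays. Of the 10, 1 passed at the 99th percentile of receptor genes and 0 with tissue-restricted genes or the antigenomic control. Without cross-hybridising probe sets 0 passed as well, but that setting takes whole genes out of the test, leaving 15261 genes. It also lowered the count of basal markers from 10 to 6, dermal markers from 19 to 16 and housekeeping genes from 8 to 5. That 0 can therefore stand for genes left out of the test rather than genes without signal. Cdh5 (5.81 ± 0.27), Kdr (6.35 ± 0.35) and Tek (5.82 ± 0.49) were not above background. Leukocyte markers reached 3 of 12, Cd68 (8.83 ± 0.26), Fcer1g (7.29 ± 0.45) and Cd79a (7.50 ± 0.12), with means over the list of 6.25, 6.33 and 5.97, and 1, Cd68, passed with tissue-restricted genes. Ptprc, the CD45 gene, stood at 4.03 ± 0.20, and Csf1r (6.47 ± 0.14) and Adgre1 (5.04 ± 0.09) were not above background either.

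Pericyte and smooth muscle markers reached 3 of 7, Pdgfrb, Myh11 (7.24 ± 0.57, SD, n = 3) and Acta2 (9.56 ± 0.82), of which 2 passed with tissue-restricted genes as background and Myh11 did not. Rgs5 (6.42 ± 0.46), Des and Kcnj8 (5.42 ± 0.12) were not above background. Melanoblast markers reached 2 of 8, the neural crest factor gene Sox10 (8.02 ± 0.22) and the melanosome gene Pmel (7.33 ± 0.26), of which Sox10 passed with tissue-restricted genes. Mitf (5.64 ± 0.61), Dct (6.36 ± 0.58) and Tyr (5.16 ± 0.10) were not above background. Schwann and neural markers reached 4 of 8 (50%, near the 52.4% of all genes). They were Sox10, Erbb3 (9.12 ± 0.43), Ngfr (8.61 ± 0.25) and Tubb3 (7.05 ± 0.51). All but Tubb3 passed with tissue-restricted genes, beside 34.3% of all genes. Foxd3 (5.12 ± 0.36), S100b (5.53 ± 0.27) and Elavl4 (5.93 ± 0.06) were not above background.

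Replicate 3 stood apart from the other 2 arrays. Over all probe sets replicates 1 and 2 correlated with r = 0.994, and each of them with replicate 3 with r = 0.942 and 0.944. Genes above background lay 0.26 higher on replicate 3 than the mean of the other arrays (median), and on replicates 1 and 2 they lay at -0.11 and -0.14. Litter differences are therefore given after this shift of the array was taken off. Each litter was on 1 array, so litter, cell number and array cannot be told apart, and no test was made.

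After the shift, all 7 genes lay lower on replicate 3 than on the other litters, while by construction 50% of genes above background do. The differences were -1.29 for Zeb2, -0.74 for Vim, -0.72 for Snai1, -0.49 for Zeb1, -0.31 for Twist1, -0.23 for Snai2 and -0.17 for Fn1 (log2). Without taking off the shift, Snai2 and Fn1 turned round, at 0.02 and 0.08. For Vim, probe set 1438118_PM_x_at lay the other way, at 0.29 after the shift. Of the Zeb2 probe sets not above background, 1454200_PM_at lay at 1.15, 1458941_PM_at at 0.065 and 1456389_PM_at at -1.01. On replicate 1, 6 of the 7 genes lay higher than on the other litters after the shift, led by Zeb2 (0.76) and Zeb1 (0.55). Snai2 was the exception, at -0.14.

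The marker lists stood as follows in the same litters. By construction, 50% of genes above background lie on each side after the shift. Of 19 dermal mesenchyme genes above background, 17 lay lower on replicate 3 after the shift (median -0.42) and 17 lay higher on replicate 1 (median 0.25). The mesenchymal genes raised in the transition were more divided. Of 16 above background, 9 lay lower and 7 higher on replicate 3 (median -0.26), and 13 lay higher on replicate 1 (median 0.35). Of 10 basal epithelial markers, 9 lay lower on replicate 1 (median -0.34), and 6 lay higher on replicate 3 (median 0.19). Of 25 epithelial genes repressed in the transition, 17 lay lower on replicate 1. On replicate 3, 13 of them lay higher and 12 lower (median 0.035), which is near the 50%. Tissue-restricted background genes, read as a check on dim signals, lay lower on replicate 3 in 11 of 13 cases (median -0.53). Housekeeping genes, which are bright, lay lower there in 6 of 8 cases (median -0.16). Endothelial and leukocyte markers above background each lay lower on replicate 3 in 2 of 3 cases. Neither the part of mesenchymal cells nor that of the array in these differences was tested.

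**Figure D3:**
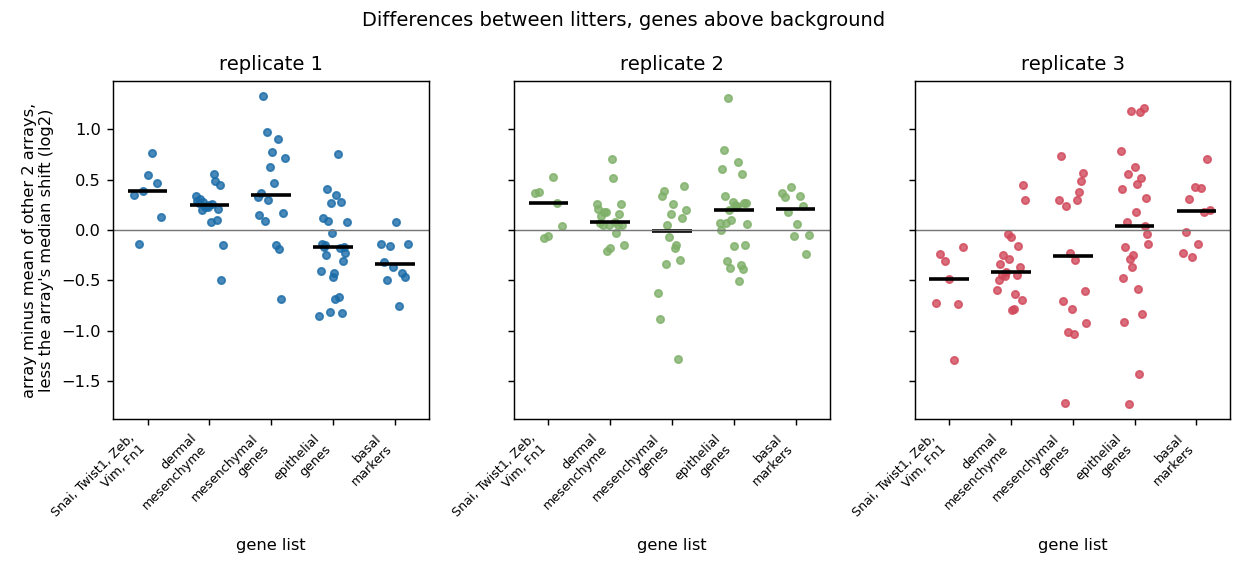
Each panel is 1 litter, and points are genes above background: the array's log2 value minus the mean of the other 2 arrays, less the median of this difference over all genes above background (y axis), by gene list (x axis). Black bars are medians. The 7 transition genes and the dermal mesenchyme markers lie mostly above 0 on replicate 1 and below 0 on replicate 3, and basal markers lie mostly below 0 on replicate 1.

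The listed genes nearest to each of the 7 in their course over the litters were found by the Euclidean distance of centred log2 values over the 3 arrays, among 150 genes above background. For Snai2 it was Krt5, the basal keratin gene, with 11.98, 12.31 and 12.17 (distance 0.0039), and no other gene above background was as near. Next came Rcor1, a corepressor gene (0.035). Snai2 varied little over the litters (range 0.33, against a median of 0.48 over genes above background). It also lost its call under the stricter backgrounds, and no relation to Krt5 was tested. For Twist1 the nearest were the Wnt ligand gene Wnt5a (0.028) and Mmp14 (0.081), and for Zeb1 they were Prrx1 (0.053) and the syndecan gene Sdc2 (0.088). Snai1 lay nearest to Prph (0.015) and Sparc (0.030), Vim to Crabp1 (0.032), a retinoic acid binding protein gene on the dermal list, and Flt1 (0.054), and Fn1 to Tbx15 (0.025) and Cdh3 (0.043). On the lists, the nearest to Zeb2 were Muc1 (0.14) and Tgm2 (0.21). Such distances grow with the range over the litters, which was 1.12 for Zeb2. With 3 arrays such closeness is common. For example, 49 other genes above background were as near to Fn1 as Tbx15, and 10 as near to Zeb1 as Prrx1. To Snai2, 18 were as near as Rcor1, and to Zeb2, 62 were as near as Muc1.

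**Figure D4:**
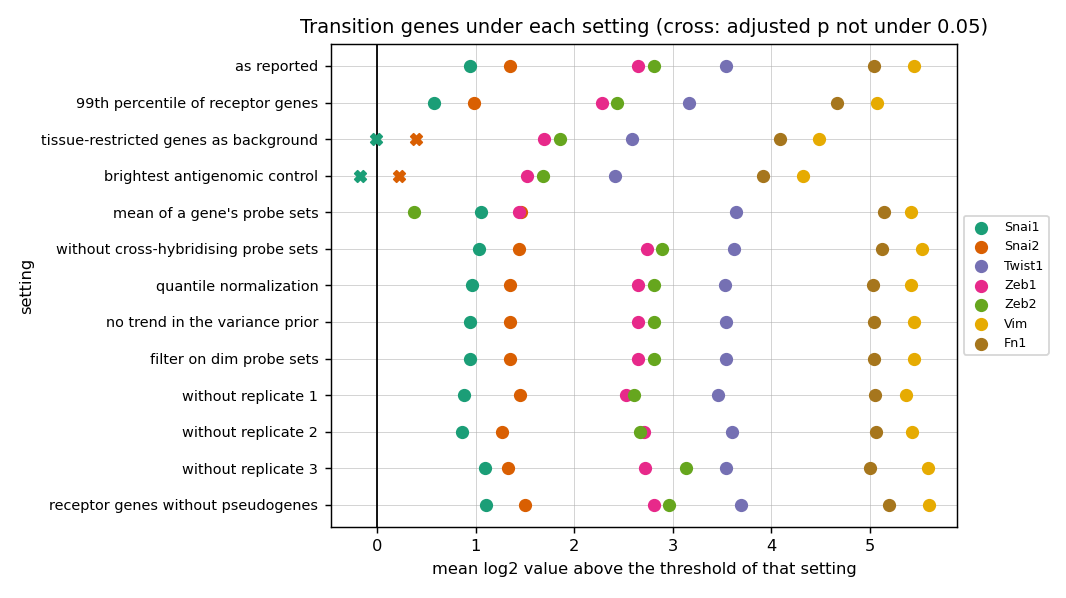
Mean log2 value of each of the 7 genes above the threshold (x axis) under each processing setting (y axis), with circles for genes above background and crosses for those not above it. Vim, Fn1 and Twist1 stay right of 2 in every row, and crosses appear only for Snai1 and Snai2, with tissue-restricted genes or the brightest antigenomic control as background.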

How the data were processed

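RNA of 3 sorted cell pools was hybridised to Affymetrix arrays, 1 array per litter. The authors deposited log2 expression values for each probe set. Per the submitters' processing notes the authors used RMA and the affy package, and versions, settings and a genome build are not given in the sources used here. RMA usually subtracts background, brings arrays to 1 distribution and joins probes into 1 value, and weak signals are compressed by it. Replicate 3 had another distribution of values, and whether the 3 arrays were normalized together is not given in the sources used here. The platform annotation gave 1 symbol for 28898 probe sets, several for 551 and none for 15588, and 104 were controls. A gene took its probe set of highest mean.

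Each array's threshold, the 95th percentile of 76 receptor genes, was subtracted, and limma 3.58.1 (R 4.3.3) tested whether the mean difference exceeded 0. The fit was an intercept with empirical Bayes and a trend, p-values were one-sided, and Benjamini-Hochberg adjustment ran over all 17097 genes, or over all 28898 probe sets in a second fit. P-values leave out the uncertainty of the threshold. The limma step was run on simulated distances from a fixed threshold, which does not test the threshold, the choice of probe set or the array shift. Levels of different genes were not ranked against each other. Arrays carry no count depth, and having 3 of them limits the precision. Python 3.11.15 with numpy 2.4.6, pandas 2.3.3 and matplotlib 3.10.9 was used besides R.

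The 7 genes and all lists were chosen with earlier results of these data known. Genes were named by a rule: the 7 genes, and Lgr5, Itga6, Krt5, Krt14, Cdh1 and Epcam. From the lists of other factors, epithelial genes and mesenchymal genes came the first 8 in list order above background and the first 4 not above. From each other list came the first 4 and the first 3, but no gene was named from the housekeeping and tissue-restricted lists. Genes near in pattern were the nearest 2. Postn was named for its list overlap. The E-box search and its choice of promoters were made after the values were seen.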

Additional observations from a re-analysis of the deposited data

How the results depend on the processing

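The count of 7 of 7 genes above background held with the 99th percentile as threshold, averaged probe sets (where Zeb1 lay at 1.44 and Zeb2 at 0.38 above the threshold, against 2.65 and 2.81 with the brightest), no cross-hybridising probe sets, quantile normalization, no variance trend, a filter on dim probe sets and without replicate 1, 2 or 3. It was 5 with tissue-restricted genes or the brightest antigenomic control as background. Genes above background numbered 5872 and 5399 under these 2, 8525 to 9635 with 1 replicate left out, and 9426 with receptor pseudogenes left out, a setting chosen after seeing the data. Probe sets of the 7 genes above background numbered 7 with tissue-restricted genes or the antigenomic control, against 10 as reported, 9 without cross-hybridising probe sets, 11 without receptor pseudogenes, and 10 to 11 with 1 replicate left out.

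Against the antigenomic control, Snai1 lay at -0.18 and Zeb1 probe set 1446127_PM_at at -0.074, and against tissue-restricted genes Snai1 lay at -0.010. Zeb1 probe set 1443005_PM_at lay at -0.074, -0.66 and -0.83 with the 99th percentile, tissue-restricted genes and the antigenomic control. Zeb2 probe set 1454200_PM_at lay at 0.0085 without cross-hybridising probe sets, 0.079 without receptor pseudogenes, and -0.56 to 0.31 with 1 replicate left out, never with a call. These alternatives move the threshold or drop an array by construction.

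Replicate 3 minus the mean of the others, on deposited values, was -0.47 for Snai1, 0.02 for Snai2, -0.05 for Twist1, -0.24 for Zeb1, -1.03 for Zeb2, -0.48 for Vim and 0.08 for Fn1. After quantile normalization it was -0.79 for Snai1, -0.35 for Snai2, -0.48 for Twist1, -0.66 for Zeb1, -0.78 for Vim and -0.25 for Fn1. With each array centred on the median of genes above background it was -0.81, -0.32, -0.40, -0.58, -0.83 and -0.26 for the same 6 genes. With averaged probe sets it was -0.016 for Zeb2, whose average includes 3 probe sets not above background, and 0.0098 for Vim. No paired analysis was possible because there was 1 group. Signals near the threshold, such as those of Snai1 and Snai2, are where RMA values limit most.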

Other observations

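Id genes, whose products bind class I helix-loop-helix proteins and keep them from Twist factors, were read beside Twist1, and they were singled out after their values were seen. All 4 were above background. Id3 had 9.42, 9.78 and 11.22 (log2), highest on replicate 3, as were 63.2% of all genes above background. After the array shift was taken off, Id3 lay 1.37 and Id1 0.25 higher on replicate 3 than on the other litters. Id2 and Id4 went the other way, at -0.19 and -0.45. Id1 had 8.69, 8.66 and 9.18, Id2 stood at 10.29 ± 0.04 and Id4 at 10.77 ± 0.12 (SD, n = 3).

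Epithelial regulators linked to the Zeb genes were also singled out after their values were seen. The products of Grhl2 and Ovol1 are known to repress Zeb1, and Esrp1, a splicing regulator gene, is known to be repressed by ZEB1 protein. Grhl2 had 8.81, 9.08 and 10.42, and Esrp1 had 8.15, 8.23 and 9.62. After the array shift was taken off, Grhl2 lay 1.21 and Esrp1 1.17 higher on replicate 3 than on the other litters. Ovol1 had 10.70, 10.88 and 10.21, and its difference after the shift was -0.84. With 3 litters no relation was tested.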
